A study of Mus musculus with 2 samples.

Results

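The 34 genes described here encode proteins that hepatocytes make, nearly all for export into the blood plasma, and they were measured in mouse ureters at postnatal day 4. They were taken by name from 30011 gene names that carry a probe on the array, with 32 plasma proteins and the intracellular enzymes Cps1 and Tat. The choice used measured values, because genes of this kind had been seen to differ in opposite directions between Rbpj-cKO and control on the 2 arrays. Their ratios on both arrays are therefore given as a description, without a test in their support. The 34 genes had 44 probes (24 genes with 1 probe and 10 with 2), and 32 of the 34 passed the filter on dim probes. Apob and Fga did not pass.

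Hepatocytes secrete most proteins of the plasma: albumin and other carriers, apolipoproteins, clotting factors and protease inhibitors. Their genes are driven by a shared set of liver transcription factors, among them HNF1, HNF4, C/EBP and FOXA proteins, and alpha-fetoprotein is the albumin relative of fetal life that falls after birth. The ureter carries urine from kidney to bladder and consists of urothelium, smooth muscle and a fibroblast coat, none of which is known for making albumin or fibrinogen.

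The study asked which transcripts differ in ureters after deletion of Rbpj, the transcription factor of the Notch pathway. Rbpj-cKO ureters had the genotype Tbx18(cre/+);Rbpj(fx/fx), in which Cre is driven from the Tbx18 locus, active in the mesenchyme around the ureteric epithelium. Controls were Tbx18(+/+);Rbpj(fx/n.d.), so they lacked the cre allele of Tbx18 and carried at least 1 floxed Rbpj allele. All mice were of the NMRI strain, and total RNA was measured on 2-colour arrays, each holding 1 control and 1 Rbpj-cKO RNA. Array 1 held the pair labelled female, with control 1 in the green and Rbpj-cKO 1 in the red channel. Array 2 held the pair labelled male with the dyes exchanged, control 2 in red and Rbpj-cKO 2 in green. How many animals gave each RNA, and whether animals were pooled, the labels do not say, so each group is 2 RNAs, and sex, dye and replicate changed together. p-values rest on the spread between these 2 pairs, which may be partly technical, and on a variance estimate shared across all genes.

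One label and one RNA have to be set out before the results. In the RNA Rbpj-cKO 1, labelled female, the Y-linked genes Ddx3y and Eif2s3y had log2 levels of 11.31 and 11.97, against 7.08 and 7.70 in control 1. Their levels in the pair labelled male were 13.46 and 14.25 in control 2 and 12.92 and 14.06 in Rbpj-cKO 2. Every ratio of array 1 below rests on that RNA, and array 2 does not contain it. Control 2 stood apart in the genes described here, so results on array 2 are given with it and with control 1 in its place. Rbpj was lower in both Rbpj-cKO RNAs (log2 ratios -0.92 and -1.10). Of the gene spots on each array and channel, 71.8% to 74% were well above background, and the 2 arrays limit the precision. The ureter was present by its markers: all 10 urothelium, 9 smooth muscle and 8 fibroblast markers were well above background in all 4 RNAs.

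Sequences are shown first for the probe that carries the albumin values, for the stretch that ties the antitrypsin probes together, and for 5 promoters. The albumin probe lies on the plus strand at chr5:90901598-90901657 (mm9), and the files list 1 RefSeq mRNA for its 60 bases.
Alb probe: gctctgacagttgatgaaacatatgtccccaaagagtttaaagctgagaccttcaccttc
The probes of Serpina1a, Serpina1c and Serpina1e share the 29 bases below, which the probe of the model gene Gm8893 also contains. The values of these 4 names may therefore mix the copies.
Shared run: gtcatccttccttctgaattgggttcctt
Promoters are the 250 bases before the RefSeq start on the gene's own strand (GRCm38.p6). Capitals mark GTTAAT, the half-site bound by HNF1, or its reverse complement ATTAAC. The first 4 genes are members that were at least 1.5-fold higher on array 1 and lower on array 2, and Itih2 is a member with nearly equal levels in both RNAs of array 2. These 5 were picked by hand for display and do not stand for the members.
Alb promoter, chr5:90460620-90460869, plus strand: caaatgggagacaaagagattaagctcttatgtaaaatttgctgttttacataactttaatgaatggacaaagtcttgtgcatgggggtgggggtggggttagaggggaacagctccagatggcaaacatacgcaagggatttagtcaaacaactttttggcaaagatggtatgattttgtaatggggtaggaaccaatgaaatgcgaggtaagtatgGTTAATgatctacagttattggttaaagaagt
Afp promoter, chr5:90490464-90490713, plus strand: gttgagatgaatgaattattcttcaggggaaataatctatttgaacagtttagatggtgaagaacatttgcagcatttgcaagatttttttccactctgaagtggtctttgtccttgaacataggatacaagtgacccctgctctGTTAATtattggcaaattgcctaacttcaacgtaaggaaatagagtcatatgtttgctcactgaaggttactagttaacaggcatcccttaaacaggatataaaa
Gc promoter, chr5:89457899-89458148, minus strand: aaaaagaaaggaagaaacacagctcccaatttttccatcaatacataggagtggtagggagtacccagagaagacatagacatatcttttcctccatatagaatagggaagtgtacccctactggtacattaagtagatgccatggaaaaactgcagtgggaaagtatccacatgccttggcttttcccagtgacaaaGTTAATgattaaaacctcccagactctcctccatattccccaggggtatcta
Igfbp1 promoter, chr11:7197537-7197786, plus strand: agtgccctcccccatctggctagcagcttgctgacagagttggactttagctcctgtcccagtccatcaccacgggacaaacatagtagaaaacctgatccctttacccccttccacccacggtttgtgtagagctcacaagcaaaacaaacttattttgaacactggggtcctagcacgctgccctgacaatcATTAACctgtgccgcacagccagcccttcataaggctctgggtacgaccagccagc
Itih2 promoter, chr2:10130684-10130933, minus strand: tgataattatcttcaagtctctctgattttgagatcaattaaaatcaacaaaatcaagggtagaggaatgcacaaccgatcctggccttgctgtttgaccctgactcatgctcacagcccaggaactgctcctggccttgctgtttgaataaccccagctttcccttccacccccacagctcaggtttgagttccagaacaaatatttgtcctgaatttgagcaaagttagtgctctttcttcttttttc

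The half-site begins 32 bases before the start of Alb, 105 before that of Afp, 52 before that of Gc and 56 before that of Igfbp1, and the Itih2 stretch has none. RefSeq windows of 300 bases (250 before and 50 after the start) were found for 26 of the 34 genes, 28 windows in all. GTTAAT on either strand was in 12 of these 28 windows (42.9%), against 7.1% of all 32851 windows of that length. By gene, it was present in 11 of the 22 matched members that were at least 1.5-fold lower on array 2 and in 1 of the 4 others, Itih1. The 12 genes with the half-site include the antitrypsin copies Serpina1a, Serpina1c and Serpina1e. Ahsg, Ambp, Apoh and Kng2, also higher on array 1 and lower on array 2, had matched windows without it. TTGCNNAA, the C/EBP motif, was in 14 windows (50%), against 10.8% of all windows. By gene, it was in 12 of the same 22 members and in 2 of the 4 others. TGTTTAC, a FOXA motif, was in 3 windows (10.7%, against 3.65%), by gene in 2 of the 22 and in 1 of the 4. CAAAGTCCA, an HNF4 motif, was in none (against 0.475%). Matches of each motif were counted separately, also where they overlap, and a match is a run of letters, not a measured binding site.

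Values below are normalized log2 levels of single channels, comparable between the 4 RNAs of one gene but not between genes, and log2 ratios of Rbpj-cKO over control. Most plasma protein genes were highest in control 2, and in 27 of the 34 its gap to the next RNA was wider than the whole range of the other 3. That range was still 1.5-fold or more in 19 of the 34 genes (median 0.61), widest in Hp (2.05). Both counts were taken over the members alone, without a share over all genes. The members were chosen on ratios that include control 2, so nothing is read from these counts. The median of the 34 genes was 8.19 in control 1, 8.56 in Rbpj-cKO 1, 10.80 in control 2 and 8.66 in Rbpj-cKO 2. All 34 were well above background in control 2, and 32 in each of the others. The SD between the spots of a member's probe lay between 0.01 and 0.14 for the ratios.

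**Figure D1:**
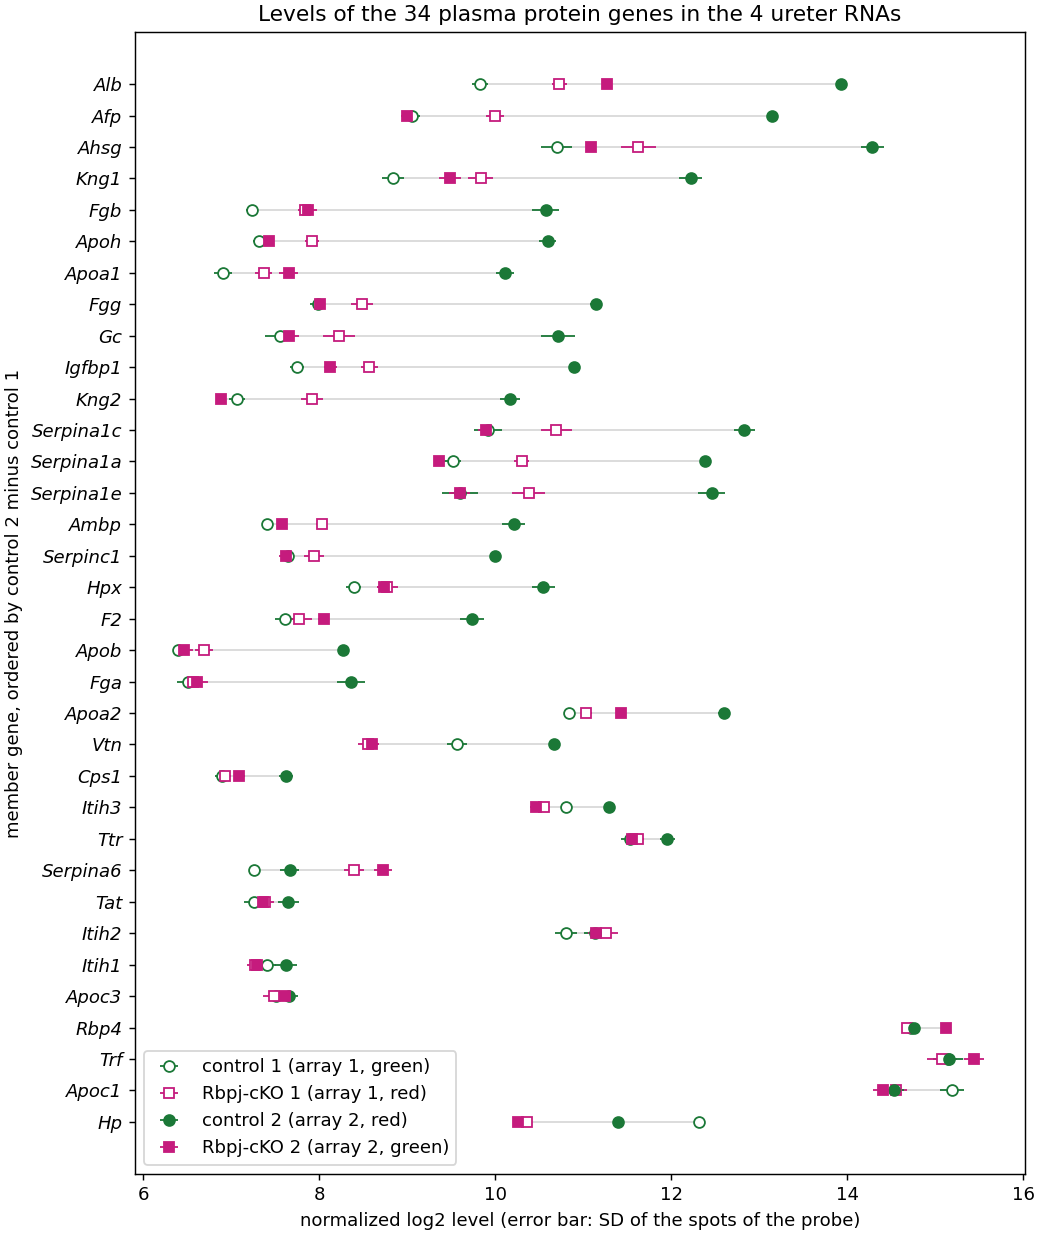
Normalized log2 levels (x axis) of the 34 genes (y axis, ordered by control 2 minus control 1) in the 4 RNAs; error bars are SDs between the spots of the probe, not between animals. In the upper part of the plot control 2 lies far to the right of the other 3 RNAs, by up to 3.15 for Afp over the next RNA, and at the bottom Hp is highest in control 1.

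Albumin (Alb), the main carrier protein of plasma, had a level of 9.83 in control 1, 10.73 in Rbpj-cKO 1, 13.93 in control 2 and 11.27 in Rbpj-cKO 2. Control 2 was thus the highest RNA, and both Rbpj-cKO RNAs lay between the controls. The ratio was 0.90 on array 1 and -2.66 on array 2, where control 2 was 6.33-fold above Rbpj-cKO 2. Alpha-fetoprotein (Afp) had levels of 9.05, 9.999, 13.15 and 9.003 in the same order of RNAs. The ratios were 0.95 and -4.14, and control 2 stood at 17.7-fold the level of Rbpj-cKO 2. For Gc, the vitamin D binding protein, the levels were 7.56, 8.23, 10.71 and 7.65 and the ratios 0.67 and -3.06. Control 1 and Rbpj-cKO 2 came from different arrays but carried the same dye. Control 1 minus Rbpj-cKO 2 was 0.05 for Afp and -0.10 for Gc. For Alb it was -1.43, and control 2 was 2.66 above Rbpj-cKO 2. In each of these 3 relatives the 2 RNAs were nearer to each other than either was to control 2, least clearly in Alb.

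The other carriers did not share one pattern. Hpx, the heme scavenger hemopexin, had levels of 8.39 in control 1, 8.78 in Rbpj-cKO 1, 10.54 in control 2 and 8.73 in Rbpj-cKO 2 (ratios 0.38 and -1.81). Igfbp1, a secreted binding protein of insulin-like growth factors, had 7.75, 8.57, 10.89 and 8.12 (0.82 and -2.77). Both were highest in control 2.
Transthyretin (Ttr), the carrier of thyroxine and of retinol-binding protein, differed far less, with 11.53, 11.62, 11.96 and 11.56 (0.09 and -0.40). Transferrin (Trf), the iron carrier, had 15.14, 15.08, 15.16 and 15.45 (-0.07 and 0.29), and the retinol carrier Rbp4 had 14.73, 14.68, 14.76 and 15.12 (-0.05 and 0.36). Trf and Rbp4 were highest in Rbpj-cKO 2, not in control 2. The signs of the Trf ratios on both arrays and of the Rbp4 ratio on array 1 turned under other normalizations (with median centring to 0.15, -0.01 and 0.10).

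Haptoglobin (Hp), which binds free hemoglobin, was lower in both Rbpj-cKO RNAs. Its levels were 12.31 in control 1, 10.36 in Rbpj-cKO 1, 11.40 in control 2 and 10.26 in Rbpj-cKO 2, so the groups did not overlap and control 1 was highest (ratios -1.95 and -1.14). Markers of fat cells had the same order of controls. The summed signal of 16 adipocyte markers was 19.86, 17.40, 18.43 and 17.48 on the log2 scale. Of the 16, 13 were at least 1.5-fold lower on both arrays (0.794% of all genes). The part of fat cells in the Hp values was not tested.
Serpina6, the corticosteroid-binding globulin, was the opposite case, with 7.26 and 7.66 in the controls and 8.40 and 8.72 in Rbpj-cKO 1 and 2. Its ratios were nearly equal, 1.13 and 1.06 (mean 1.10 ± 0.05, SD, n = 2), and a dimmer probe gave 0.78 and 0.58. Kidney epithelium markers had medians of 0.44 and 0.25 on the 2 arrays. Of the 12 measured, 2 were at least 1.5-fold higher on both (0.402% of all genes). The part of kidney epithelium in the Serpina6 values was not tested.

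Among the apolipoproteins, which package lipids in plasma particles, Apoa1 of high-density lipoprotein had levels of 6.91, 7.37, 10.11 and 7.65 in control 1, Rbpj-cKO 1, control 2 and Rbpj-cKO 2 (0.46 and -2.46). Apoh, which binds phospholipids, had 7.31, 7.92, 10.60 and 7.42 (0.61 and -3.17). Apoa2, another main protein of high-density lipoprotein, had 10.84, 11.03, 12.60 and 11.43 (0.19 and -1.16). Its dimmer probe gave the larger ratios of 0.60 and -2.70, so the size for Apoa2 depends on the probe.
Apob, the core protein of low-density lipoprotein, was well above background in control 2 alone, with 8.27 against 6.39, 6.69 and 6.47, which puts control 2 at least 3.13-fold above Rbpj-cKO 2. Such a bound takes, for the dim RNA, the higher of the probe's own signal and the lowest signal among probes well above background, so the measured levels are not read as a fold. A further Apob probe was not well above background in any of the 4 RNAs.
Apoc3, an inhibitor of lipoprotein lipase, was nearly level at 7.51, 7.49, 7.66 and 7.61 (-0.02, which was 0.01 in the deposited series table, and -0.05), although its dimmer probe gave -0.22 and -0.77. Apoc1 was highest in control 1, at 15.19 against 14.55, 14.53 and 14.41 (-0.64 and -0.12).

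The serine protease inhibitors were alike among themselves. Serpina1a, Serpina1c and Serpina1e, copies of alpha-1-antitrypsin that protects tissue from neutrophil elastase, are read by probes with the shared run printed above. Serpina1a had 9.52 in control 1, 10.30 in Rbpj-cKO 1, 12.39 in control 2 and 9.36 in Rbpj-cKO 2 (0.79 and -3.03). Serpina1c had 9.92, 10.69, 12.83 and 9.89 (0.77 and -2.94), and Serpina1e 9.60, 10.38, 12.46 and 9.60 (0.78 and -2.86). These near-equal ratios come from probes that may not separate the copies. The dimmer probes of Serpina1a and Serpina1e, which lack the run, gave 0.44 and -2.49, and 0.44 and -2.08. Antithrombin (Serpinc1), which blocks thrombin, had 7.65, 7.94, 9.999 and 7.62 (0.29 and -2.37).

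Clotting and kinin genes were all lower on array 2. The fibrinogen chains, which form the clot, lie side by side on chromosome 3 with probes at chr3:82818825-82818884 (Fgg), chr3:82835678-82835737 (Fga) and chr3:82846334-82846393 (Fgb, all mm9). Fgb had levels of 7.24, 7.84, 10.57 and 7.87 in control 1, Rbpj-cKO 1, control 2 and Rbpj-cKO 2 (0.60 and -2.70), and Fgg had 7.98, 8.48, 11.15 and 8.01 (0.50 and -3.14). Fga was well above background in control 2 alone, at 8.37 against 6.51, 6.57 and 6.61, and control 2 was at least 3.36-fold above Rbpj-cKO 2.
Prothrombin (F2) had 7.61, 7.77, 9.74 and 8.05 (0.16 and -1.69). Kng1 and Kng2, the kininogens from which bradykinin is released, had 8.84, 9.83, 12.22 and 9.49 (0.99 and -2.73) and 7.07, 7.91, 10.17 and 6.89 (0.85 and -3.28). Their probes list accessions of both genes, so the values may mix the copies. In every one of these 6 genes control 2 was the highest RNA.

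The inter-alpha-trypsin inhibitor family, whose heavy chains are linked to hyaluronan, was divided. Ambp, which encodes the light chain bikunin together with alpha-1-microglobulin, had 7.41, 8.03, 10.21 and 7.58 (0.62 and -2.63). The heavy chain Itih2 had 10.80, 11.26, 11.13 and 11.15 (0.46 and 0.02), and Itih1 had 7.41, 7.27, 7.62 and 7.29 (-0.14 and -0.33). Itih3 had 10.80, 10.56, 11.30 and 10.46 (-0.24 and -0.84). Of these 4 genes, the light chain gene alone had a large excess in control 2, and the heavy chains stayed under 1 on the log2 scale on both arrays.

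Ahsg, the serum glycoprotein fetuin-A that inhibits mineral deposition, had levels of 10.70, 11.63, 14.29 and 11.08 in control 1, Rbpj-cKO 1, control 2 and Rbpj-cKO 2 (0.93 and -3.20). Vitronectin (Vtn), an adhesive protein of plasma and matrix, had 9.56, 8.56, 10.67 and 8.60, so it was lower in both Rbpj-cKO RNAs (-1.004 and -2.07) and also highest in control 2. The 2 intracellular enzymes differed little. Cps1, the first enzyme of the urea cycle, had 6.90, 6.93, 7.62 and 7.09 (0.03 and -0.53). Its level in control 2 was 0.72 above control 1 and 0.69 above Rbpj-cKO 1. Over the alternatives of processing, its ratio on array 2 went from -0.99 to -0.49, so it crossed the 1.5-fold limit in part of them. Tat, which breaks down tyrosine, had 7.26, 7.38, 7.65 and 7.36 (0.12 and -0.29).

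Taking a change of at least 1.5-fold (0.58 on the log2 scale) as the limit on each array, 13 of the 34 genes were higher in Rbpj-cKO on array 1 and lower on array 2. They were Afp, Ahsg, Alb, Ambp, Apoh, Fgb, Gc, Igfbp1, Kng1, Kng2, Serpina1a, Serpina1c and Serpina1e, with ratios from 0.60 to 0.99 on array 1 and from -4.14 to -2.63 on array 2. A further 9 were lower on array 2 alone: Apoa1, Apoa2, Apob, F2, Fga, Fgg, Hpx, Itih3 and Serpinc1. Of these, Apob and Fga did not pass the filter and have bounds only. Lower on both were 2 (Hp and Vtn, beside 0.794% of all genes), and 1 was higher on both (Serpina6, beside 0.402%). Lower on array 1 alone was 1 (Apoc1), and 8 stayed under the limit on both. For the groups of 9, 1 (Apoc1) and 8 no share over all genes was counted, and nothing is read from them. Just inside the limit on array 1 were Fgb (0.60) and Apoh (0.61), just outside Fgg (0.50) and Apoa1 (0.46). Among the 13, dimmer probes of Gc (0.42), Kng1 (0.23), Serpina1a (0.44) and Serpina1e (0.44) fell under the limit on array 1. That of Kng1 was well above background in control 2 alone. As the mean of its probes, Gc was 0.55 on array 1, so these calls depend on the probe. On array 2 the nearest were Itih3 (-0.84) inside and Cps1 (-0.53) outside. The scanner's own log ratio moved some values by over 1.5-fold, all away from 0. On array 2 it gave -4.67 for Kng2, the lowest member there, with Afp at -4.38, and -3.86 for Apoh, -3.69 for Gc, -3.27 for Ambp and -2.98 for Serpinc1. On array 1 it gave 1.53 for Kng2 and 1.79 for Serpina6.

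Of the 32 members that passed the filter, 22 were lower on array 2 by this limit, where 1.38% of all 21150 genes were, and 1 was higher (1.22%). On array 1, 14 were higher (0.955% of all genes) and 3 lower (3.7%). The 13 members opposite by this limit stand beside 0.0993% of all genes, and the 22 that were higher on array 1 and lower on array 2 by any size beside 16.1%. The members were chosen on these ratios, so nothing is read from the gap to the background. The median ratio of all 34 was 0.42 on array 1 and -1.94 on array 2, and that of all genes was -0.01 and 0.01. Pearson's correlation between the arrays across the 34 genes was -0.45, as a description only, since the genes share the same 4 RNAs.

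**Figure D2:**
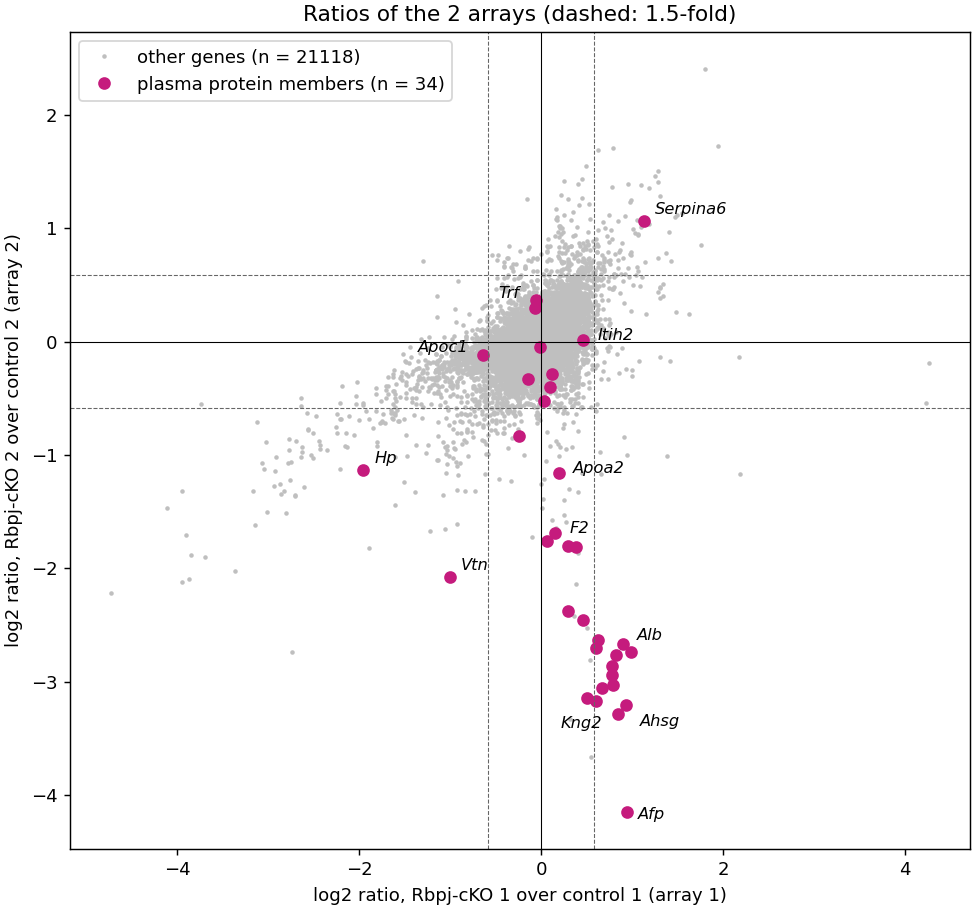
Log2 ratio of Rbpj-cKO over control on array 1 (x axis) against array 2 (y axis), with the 34 members in magenta, 21118 other genes in grey and dashed lines at 1.5-fold. Most members fall at the lower right, down to Afp at 0.95 and -4.14, while Serpina6 lies at the upper right and Hp and Vtn at the lower left.

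With the arrays fitted together, limma (Benjamini-Hochberg over all genes) called 0 of the 32 members, beside 0.00473% of all genes. The smallest adjusted p among the members was 0.084, for Serpina6, which was higher on 2 of 2 arrays. At an unadjusted p under 0.05, limma gave 5 of the 32 (Hp, Itih1, Itih3, Serpina6 and Vtn), beside 14% of all genes, and with trend and robust settings it called 1, Serpina6, beside 0.449% of all genes (95). These 5 genes have ratios of one sign on both arrays. For albumin, with opposite signs, the mean was -0.88 ± 2.52 (SD, n = 2), with an adjusted p of 0.733 from limma.

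The 4 RNAs were then compared by their levels. Control 2 was the highest of the 4 RNAs in 26 of the 32 members (21.2% of all genes), at least 1.5-fold above each of the others in 20 (0.307%) and at least 4-fold above each in 16 (0.0993%). Of the 21 genes on the whole array with such a 4-fold excess, 16 were members and 3 stood on lists of other hepatocyte genes (Pzp, Plg and Fabp1). The remaining genes were Serpina1d, a further antitrypsin copy, and Gm8893, a model gene whose probe holds the shared run. Control 2 minus control 1 had a median of 2.14 over the 34 genes, with a range from -0.92 (Hp) to 4.10 (Alb). It was at least 1.5-fold higher in 21 of the 32 members that passed (0.861% of all genes). Against Rbpj-cKO 1, which carried the same red dye, control 2 was higher by a median of 2.01, and 23 of the 32 were at least 1.5-fold higher (2.15%). The members were chosen on ratios that include control 2, so nothing is read from these counts or from their gaps to all genes.

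Rbpj-cKO 2 and control 1 carried the same green dye on different arrays, and their levels were compared after the data had been seen. Rbpj-cKO 2 was then at least 1.5-fold lower in 3 of the 32 members (Hp, Apoc1 and Vtn, beside 3.42% of all genes) and at least 1.5-fold higher in 6 (Alb, Serpina6, Apoa1, Apoa2, Fgb and Kng1, beside 1.48%). The median over the 34 genes was 0.10, against -1.94 with control 2. Both Rbpj-cKO RNAs lay above both controls in 2 of the 32 members (Itih2 and Serpina6, beside 22.3% of all genes) and below both in 4 (Hp, Itih1, Itih3 and Vtn, beside 20.8%). For Alb, Afp and the other genes with opposite signs the groups overlapped, since control 1 was at or near the bottom and control 2 at the top.

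**Figure D3:**
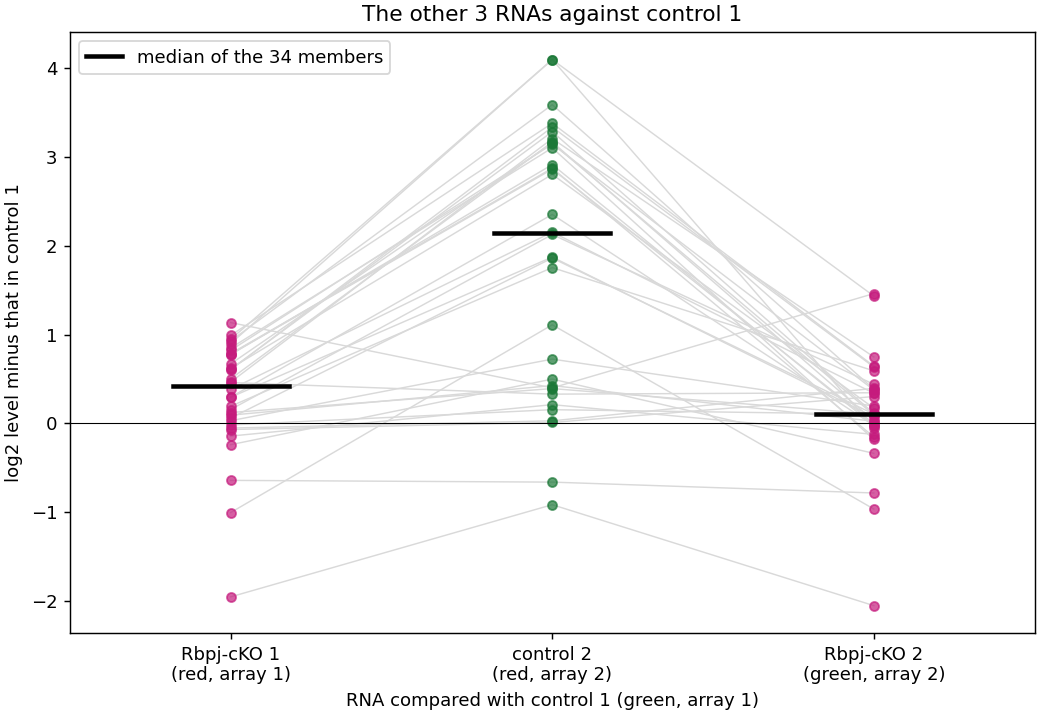
Log2 level of Rbpj-cKO 1, control 2 and Rbpj-cKO 2 minus that of control 1 (y axis) for the 34 genes, 1 point per gene and RNA, with grey lines joining a gene and black bars at the median. Control 2 has a median of 2.14, Rbpj-cKO 1 of 0.42 and Rbpj-cKO 2 of 0.10.

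Genes next to the members on the chromosome included further liver genes. Of 52 flanking genes (gene order of GRCm38.p6), 44 were measured, with medians of -0.02 on array 1 and -0.03 on array 2, and 6 (13.6%) were at least 1.5-fold lower on array 2 and 0 higher, beside 1.38% and 1.22% of all genes. These were Afm beside Alb and Afp (0.40 and -1.33), Fetub beside Ahsg (0.05 and -1.05), Hrg beside the kininogens (0.32 and -1.81), Itih4 beside Itih1 and Itih3 (-0.91 and -1.18), and Serpina1d and Serpina11 in the antitrypsin cluster (0.54 and -2.81, -0.03 and -0.64). Afm encodes afamin, an albumin relative that carries vitamin E, and Hrg the histidine-rich glycoprotein of plasma. By contrast Ankrd17, the gene beyond the albumin cluster, had -0.06 and 0.02, and Eif4a2, a translation factor gene beside Kng1 and Kng2, had 0.17 and 0.14. Apoe, next to Apoc1 and made by many cell types, had -0.34 and -0.03, and Serpina10, an inhibitor of clotting factor X, had 0.09 and -0.36. On array 1, 2 of the 44 were at least 1.5-fold lower (3.7% of all genes), Itih4 and Ffar4, the fatty acid receptor gene beside Rbp4 (-1.38 and -0.55), and 0 were higher.

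Other genes of hepatocytes came from 4 lists, from secreted proteins to transcription factors. Of 40 measured genes for further plasma proteins, 21 were at least 1.5-fold lower on array 2 and 0 higher (1.38% and 1.22% of all genes). The medians were 0.10 on array 1 and -0.65 on array 2. By the same limit 5 of the 40 were lower on array 1 and 1 higher, beside 3.7% and 0.955% of all genes. Of the 21, 3 were lower on both arrays (0.794% of all genes). Pzp, a broad protease inhibitor of the alpha-2-macroglobulin family, had levels of 7.46 in control 1, 7.78 in Rbpj-cKO 1, 10.51 in control 2 and 7.17 in Rbpj-cKO 2 (0.32 and -3.33). Plasminogen (Plg), the precursor of the clot-dissolving protease, had 6.72, 7.08, 9.33 and 6.91 (0.36 and -2.42). Serpinf2, the plasmin inhibitor, had 0.40 and -1.86. Of the 65 genes of this list with a probe, 42, 39, 50 and 41 were well above background in control 1, Rbpj-cKO 1, control 2 and Rbpj-cKO 2, and the summed signal was 17.18, 17.06, 17.18 and 17.12 on the log2 scale.

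Intracellular enzymes of hepatocytes followed in part. Of 39 measured, 17 were at least 1.5-fold lower on array 2 and 2 higher (1.38% and 1.22% of all genes), with medians of 0.17 and -0.27. On array 1, 3 were lower and 4 higher (3.7% and 0.955% of all genes). Lower on both arrays were 3, Pck1 among them, and higher on both 2 (0.794% and 0.402% of all genes). Fabp1, the fatty acid binding protein of liver, had 8.24, 8.79, 11.00 and 7.35 in control 1, Rbpj-cKO 1, control 2 and Rbpj-cKO 2 (0.55 and -3.66). The methyltransferase Bhmt had 0.50 and -2.53, and the cytochrome P450 gene Cyp3a11 had 0.38 and -2.14. Pck1, the gluconeogenic enzyme also made by fat cells, was lower on both arrays (-3.69 and -1.90) and highest in control 1.
Of 12 membrane transporters and receptors, 1 was lower on array 2 (Tfr2, -1.31 and -0.67). Of 15 liver transcription factors, 1 was (Ppara, -1.63 and -0.63), and both counts stand beside 1.38% of all genes. Tfr2 and Ppara were highest in control 1, like Pck1, and not in control 2. On array 1, 3 of the 15 factors were lower (3.7% of all genes). They were Ppara and the C/EBP genes Cebpa (-1.68 and -0.46) and Cebpb (-1.49 and -0.29). Control 2 was at least 1.5-fold above each other RNA in 16 of the 40 plasma protein genes and 9 of the 39 enzymes. It was so in 0 of the 12 transporters and receptors and 0 of the 15 factors, beside 0.307% of all genes. Over the 4 lists, 40 of 106 measured genes were lower on array 2 (1.38% of all genes) and limma called 0, with 26 at an unadjusted p under 0.05 (14% of all genes). With control 1 as the reference, 14 of the 106 were lower in Rbpj-cKO 2 (3.42% of all genes).

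Markers of the other liver cells were counted in the same way, beside the 1.38% of all genes that were lower on array 2. By the 1.5-fold limit, 0 of 5 measured Kupffer cell markers and 0 of 7 sinusoidal endothelium markers were lower on array 2, and of 11 stellate cell and cholangiocyte markers 2 were, Spp1 (2.19 and -1.17) and Ngfr (-0.84 and -0.64). Spp1, which encodes the secreted phosphoprotein osteopontin, was highest in Rbpj-cKO 1, not in control 2. Of 7 yolk sac and gut endoderm markers and 8 pancreas markers 0 were lower. All 14 erythroid markers had ratios between -0.35 and -0.01 on array 2, and 0 passed the limit. In these bulk RNAs fewer cells of a type and less RNA per cell cannot be told apart, and whether liver cells or their RNA entered control 2 was not tested.

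**Figure D4:**
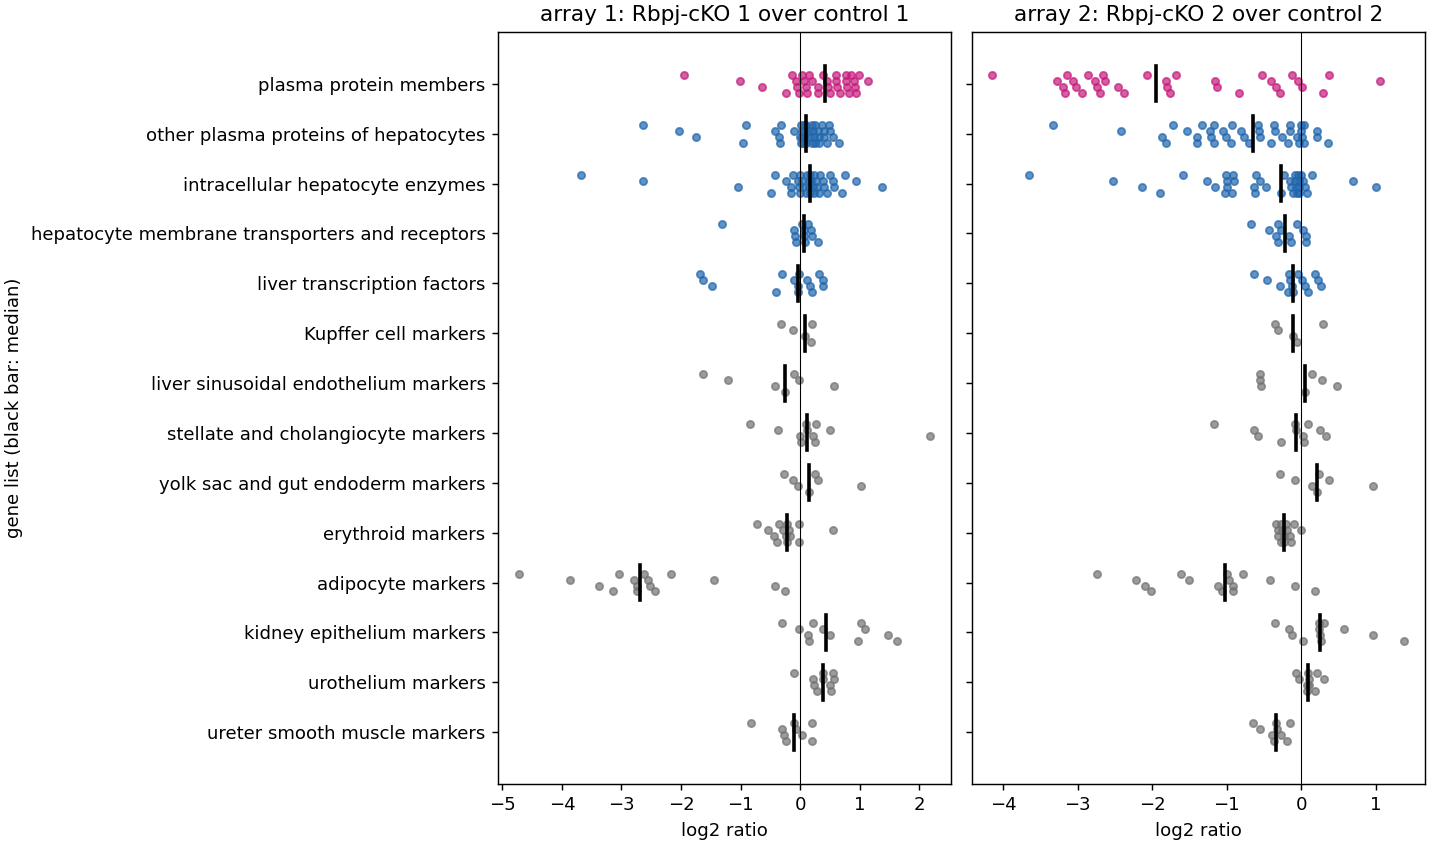
Log2 ratios of Rbpj-cKO over control (x axes) on array 1 (left) and array 2 (right) for the 34 members and 13 marker lists (y axis), 1 point per measured gene and black bars at the median. On array 2 the members (median -1.94), the other plasma proteins (-0.65) and the adipocyte markers (-1.03) lie to the left, and on array 1 only the adipocyte markers do (-2.69).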

How the data were processed

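The authors deposited fluorescence intensities per spot, read out with Agilent Feature Extraction 10.7.3.1 per the submitters' processing notes. A log10 ratio of red over green, per the file headers, and the authors' deposited series table, a score whose scale, centring and direction are not given in the sources used here (column medians 1 and 1), served as alternatives. Here, mean signals were background-corrected (normexp, offset 50) and normalized by loess within arrays, and spots with outlier flags were dropped. Ratios (log2) have Rbpj-cKO as numerator, and Aquantile gave single-channel levels. The filter required that, for either genotype, over 50% of the spots of a probe exceed background clearly on each array. The brightest probe stood for each gene, and 28328 probes took RefSeq names (GRCm38.p6), of which 1359 changed. Coordinates of probes come from the files (mm9), and exon positions were not assigned. limma 3.58.1 in R 4.3.3 tested 21150 genes (lmFit and eBayes, 1 residual degree of freedom each). It was tested on simulated data. The alternatives were another offset, no background subtraction, other normalizations, no filter, the mean of all probes, other fits and another control.

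The members and gene lists were chosen with earlier results of these data known. Any member may be named, as may up to 4 genes of a list with the largest array 2 ratios, the 20 lowest and 10 highest other genes on array 2, Rbpj, Tbx18 and genes next to members. Ddx3y, Eif2s3y and genes in the closing section were named after their values were seen.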

Additional observations from a re-analysis of the deposited data

Results flagged for a closer look

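In 13 members the pair of array 1, labelled female, and that of array 2, labelled male, moved in opposite directions, by at least 1.5-fold each. All were higher in Rbpj-cKO on array 1 and lower on array 2, and with 1 pair on each array this difference was not tested. On array 2 the log2 ratio was -2.66 for Alb, -4.14 for Afp, -3.06 for Gc, -2.77 for Igfbp1 and -3.17 for Apoh. It was -3.03, -2.94 and -2.86 for Serpina1a, Serpina1c and Serpina1e, -2.70 for Fgb, -2.73 for Kng1, -3.28 for Kng2, -2.63 for Ambp and -3.20 for Ahsg. With the same dye, control 2 was above Rbpj-cKO 1 by a median of 2.01 over the 34 members, and control 1 minus Rbpj-cKO 2 was -0.10. The labelled sex and the single RNA cannot be told apart, and Rbpj-cKO 1, labelled female, had high Y-linked transcripts (Ddx3y 11.31, against 7.08 in control 1).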

How the results depend on the processing

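The count of members lower on array 2 was 22 to 24, that of members higher on array 1 was 12 to 16 and that of opposite members 11 to 15 over 8 alternatives of processing, and control 2 was highest in 26 members under 3 further ones. Of the 64 ratios of single members, 48 moved by more than the spread between spots with the scanner's log ratio and 48 with the series table, 8 by over 1.5-fold under at least 1 of the 8 alternatives. The sign turned in 4, all small. Trf on array 1 (-0.07) was 0.15 with median centring, 0.02 with the scanner's log ratio and 0.04 with the series table, and Rbp4 on array 1 (-0.05) was 0.10, 0.05 and 0.07. Trf on array 2 (0.29) was -0.01 with median centring, and Apoc3 on array 1 (-0.02) was 0.01 with the series table. Apoa2 on array 2 (-1.16) was -1.93 as the mean of its probes. With the series table, on array 2 Kng2 was -4.30, Apoh -3.88, Gc -3.68, Ambp -3.26 and Serpinc1 -2.97, and on array 1 Kng2 was 1.61 and Serpina6 1.81. The median on array 1 (0.46 over 32 members) was 0.61 with the scanner's log ratio and 0.63 with the deposited series table. The median on array 2 (-2.22) was -2.40 with offset 16, -2.36 without background subtraction, -2.51 with the scanner's log ratio, -2.33 with scaling between arrays, -1.94 without the filter (34 members) and -2.50 with the series table. With control 1 as the reference, chosen after seeing the data, it was 0.11 and 3 members were lower. limma with trend and robust settings called 1 member and 95 of all genes, against 1 gene with the main settings. The share of all genes lower on array 2 was 3.55% with median centring and 2.36% with the scanner's log ratio. The array pairs the RNAs, so the fit of the ratios is itself the paired one, and the 2-group fit of the 4 channels without a replicate block called 0 members as well. Leaving out either pair leaves no residual degree of freedom, so those fits were not run. The causes were not tested. Array 1 does not stand for one sex, given the Y-linked transcripts in one of its RNAs, and Apob and Fga have bounds only.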

Other observations

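Over the whole array, 51 of 30011 gene names (0.17%) were well above background in control 2 alone. Of these, 2 were members, 14 stood on the lists of other hepatocyte genes and 35 on none of them. The listed ones include Uox, the urate oxidase of peroxisomes (8.17 in control 2, 6.52 to 6.65 in the other RNAs), Mbl2, the mannose-binding lectin of the complement system (8.05, against 6.46 to 6.59), and Otc of the urea cycle (7.09, against 6.25 to 6.53). Outside the lists, and named after their values were seen, were the cytochrome P450 gene Cyp2c54 (8.25, against 6.48 to 6.69), the retinol dehydrogenase gene Rdh7 (8.14, against 6.45 to 6.69), the esterase gene Aadac (7.46, against 6.38 to 6.75), Cyp2a12 (7.20, against 6.44 to 6.64) and C4bp, a plasma regulator of complement (7.16, against 6.38 to 6.54). Others of the 35 lay close to the detection limit, such as the olfactory receptor gene Olfr1257 (6.74, against 6.58 to 6.67).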
